A study of Xenopus laevis with 12 samples.

Results

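The genes described here copy DNA before a cell divides and separate the copies at mitosis. A list of 56 gene symbols, 26 for DNA replication and 30 for mitosis, was matched by name to the 37018 genes of the deposited count tables from *Xenopus laevis*, the African clawed frog. Because the ancestor of this species duplicated its genome, many genes occur as a pair of homeologs, copies on the long (.L) and short (.S) chromosomes of a pair. The symbols gave 88 genes, 36 for replication and 52 for mitosis. Of the 55 symbols found, 33 had both homeologs and 22 had one, and rrm2 was not found under that symbol. The rule for members used function and name, not measured values, but the list was chosen with earlier results of these data known.

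RNA came from whole heads of wild-type control tadpoles and of tadpoles with malformed faces after thioridazine, at Nieuwkoop and Faber (NF) stages 45 and 47, with 3 biological replicates per stage and treatment, hence 4 groups. Thioridazine is a phenothiazine antipsychotic drug. Treated embryos were exposed to 90 µM of it as neurulae, from NF stage 14 to 26, and controls went through the same window without drug. Both were held at 18 °C during exposure and at 14 °C afterwards until they reached the feeding stages. The exposure thus ended before either sampling. The labels describe the treated tadpoles as having craniofacial malformations, and whether exposed tadpoles without one were left out is not stated in them. The labels do not say how many heads went into a library or whether replicates came from separate clutches, so p-values reflect only how these particular libraries vary, which may be technical.

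As background, a cell licenses its replication origins in G1 by loading the ring-shaped MCM helicase with the help of ORC, Cdc6 and Cdt1. In S phase the ring is activated by Cdc45, the GINS complex and Mcm10, and polymerases with their clamp PCNA copy the strands. Cyclin-bound Cdk1 then starts mitosis, in which Aurora and Polo-like kinases, condensin, the spindle motors and the chromosomal passenger complex compact, align and separate the chromosomes. In the tadpole head, dividing cells are found in the ventricular zone of the brain, the ciliary margin of the retina, growing cartilage and epithelia.

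Each library held between 11998636 and 16933777 counts, spread over 30733 to 31514 detected genes. Replicates of a group had Spearman correlations of 0.966 to 0.986, and no 2 libraries were identical. All 18 genes checked as markers of head tissue, among them otx2, rho, col2a1 and pmel, had reads. Levels below are CPM, counts scaled to library size with TMM factors, and are not divided by gene length. Differences are log2 fold changes ± standard error (SE) from a single edgeR quasi-likelihood fit of all 12 libraries, and a gene was called where its p-value, adjusted by Benjamini and Hochberg over 27050 genes, lay under 0.05. Of the 88 members, 83 passed the filter on low counts and were tested, 34 for replication and 49 for mitosis. Their mean levels ran from 1.41 CPM for cdc45.S to 184 CPM for pcna.L, with a median of 23.1 CPM.

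The 5 members that did not pass the filter were mcm3.L, mcm6.L, ccnb1.L, ccnb1.S and birc5.L. None of them exceeded 5 counts or 0.348 CPM in any library. Genes named as further copies of the same symbols did carry reads, and they are described here after their values were seen, outside the list. For cyclin B1, the partner that activates Cdk1 at mitotic entry, ccnb1.2.L ran from 42.4 to 82.8 CPM and ccnb1.2.S from 29.4 to 65.0 CPM across the 12 libraries. Among copies of the helicase subunits, zmcm3.L ran from 42.9 to 74.4 CPM and mcm6.2.L from 62.7 to 83.2 CPM. Survivin, the passenger complex subunit, was read mainly from birc5l.S, at 22.6 to 39.6 CPM, and less from birc5l.L, at 6.97 to 13.5 CPM. For the small subunit of ribonucleotide reductase, which makes deoxynucleotides, rrm2.2.L ran from 37.9 to 80.0 CPM and rrm2.1.L from 1.55 to 3.14 CPM. The listed symbols thus missed the copies that carried most reads of these genes. How reads that fit several copies were counted is not given in the sources used here, so the level of a single homeolog is uncertain where the copies are alike.

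**Figure D1:**
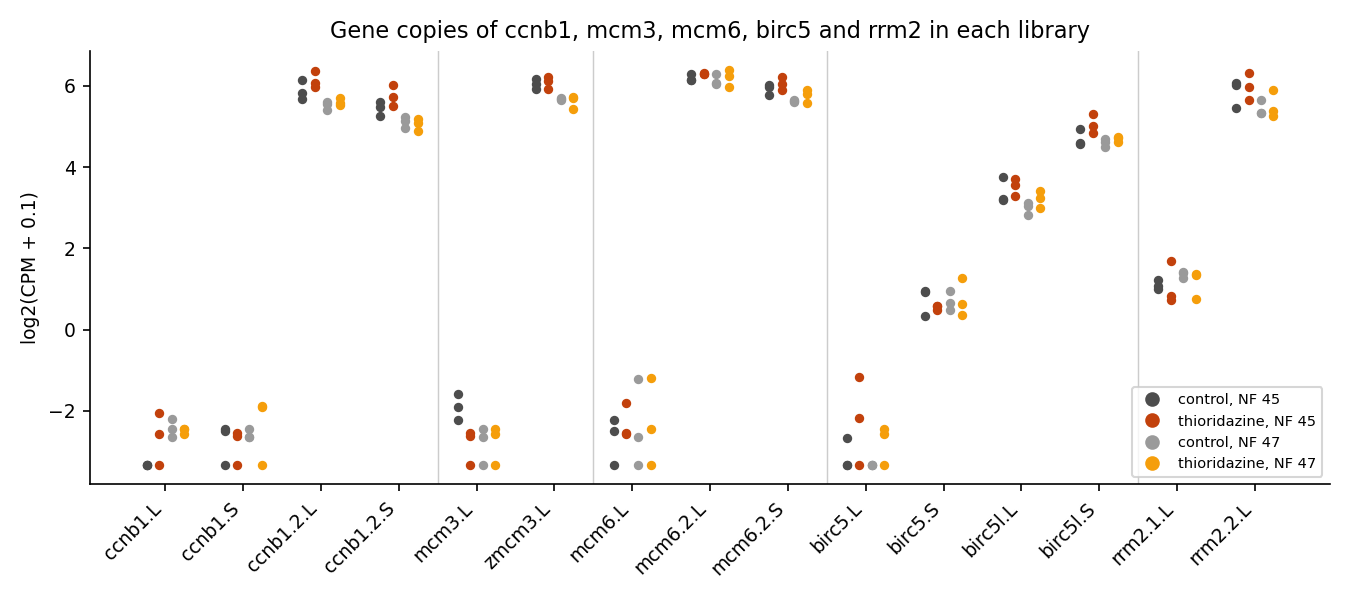
Level of each gene copy of ccnb1, mcm3, mcm6, birc5 and rrm2 as log2(CPM + 0.1), with 1 point per library and a colour for each of the 4 groups; vertical lines part the families. The listed copies ccnb1.L, ccnb1.S, mcm3.L, mcm6.L and birc5.L lie at the bottom, none above 0.348 CPM, and their relatives lie above them.

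The summed level of the mitosis members was highest in treated heads at NF stage 45. Control heads at NF stage 45 summed to 1260, 1628 and 1555 CPM for mitosis in replicates 1, 2 and 3, and treated heads to 1512, 1940 and 1806.5 CPM. At NF stage 47 the sums were 1338, 1279 and 1277 CPM in controls and 1201, 1284 and 1355 CPM in treated heads. The treated libraries at NF stage 45 all lay above the treated libraries at NF stage 47. Treated and control libraries overlapped at both stages. The treated mean at NF stage 45 was 1.18 times the control mean, and within each replicate number the treated library was at least 1.16 times its control. In both groups at NF stage 45, replicate 1 was lowest and replicate 2 highest.

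Replication members also had their highest mean sum in treated heads at NF stage 45, with smaller gaps between treatments. In replicates 1, 2 and 3 they summed to 1236, 1538 and 1393 CPM in controls and to 1302, 1638 and 1537 CPM in treated heads at NF stage 45. The corresponding sums at NF stage 47 were 1271, 1196 and 1187 CPM in controls and 1089, 1285 and 1327 CPM in treated heads. Treated libraries exceeded controls of the same number at NF stage 45 by 1.05, 1.07 and 1.10 times, and the groups overlapped. In such whole-head RNA, a change in the share of dividing cells and a change of these RNAs per dividing cell cannot be told apart.

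**Figure D2:**
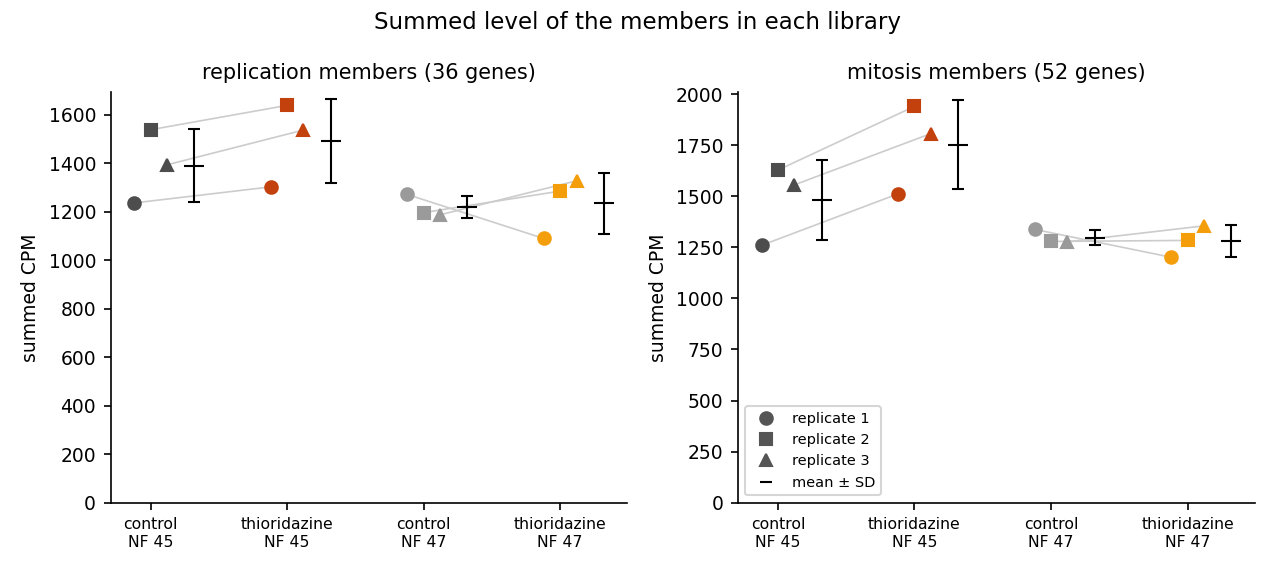
Summed CPM of the 36 replication and 52 mitosis members in each library, by group; symbols mark replicates 1, 2 and 3, grey lines join the same number within a stage, and black bars give the mean and SD. For mitosis, treated heads at NF stage 45 sum to 1512 to 1940 CPM and at NF stage 47 to 1201 to 1355 CPM.

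Whether thioridazine heads differed from controls at the earlier stage was addressed first. At NF stage 45 the fitted level of 73 of the 83 members was higher in treated heads and that of 10 was lower, but no member was called by edgeR. Across all genes, 0% were called in this comparison and 53.3% had a fold change above 0. Among mitosis members, 46 of 49 were higher with a median log2 fold change of 0.24, and among replication members 27 of 34 with a median of 0.07, beside 0.01 over all genes. DESeq2 also called no member, nor did a fit with the replicate number as a block, in which 16 of all genes were called, or 268 with that block within each stage. At an unadjusted p under 0.05 there were 10 higher members, all of them mitosis genes, and none lower, where 2.25% of all genes were higher and 3.08% lower at that level. In 9 members the 3 treated libraries all lay above the 3 controls, against 4.19% of all genes, in none did they all lie below, against 5.36%, and 53 were higher within each of the 3 replicate numbers and 3 lower, where 18.6% and 16.2% of all genes were. Without control replicate 1 at NF stage 45, 59 members were higher and 24 lower, and without treated replicate 2 the counts were 62 and 21. The replication median was then just under 0 in both cases, at -0.0061 and -0.0024, while the mitosis median was 0.13 or higher with any single library left out.

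Of the cyclins, ccna2.L (gene 734775) had the smallest p-value of all members in this comparison. Cyclin A2 drives Cdk2 in S phase and Cdk1 at mitotic entry. At NF stage 45 ccna2.L stood at 25.2, 27.5 and 29.5 CPM in control replicates 1, 2 and 3 and at 31.0, 43.5 and 36.3 CPM in treated ones. Each treated library was above every control. The log2 fold change was 0.43 ± 0.13, with a 95% interval of 0.15 to 0.70 and an adjusted p of 0.604. The gene stood, at NF stage 47, at 30.5, 26.7 and 26.9 CPM in controls and 25.9, 28.0 and 31.7 CPM in treated heads, which overlapped. Its homeolog ccna2.S stood at 19.8, 26.3 and 20.5 CPM in controls and 21.7, 30.5 and 24.96 CPM in treated heads at NF stage 45, with a log2 fold change of 0.21 ± 0.15. The ccna2.S groups overlapped there, although each treated library exceeded the control of its own number. At NF stage 47 ccna2.S lay at 24.1, 19.1 and 19.8 CPM and 22.2, 20.7 and 23.5 CPM in control and treated heads.

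Both homeologs of cdk1, the kinase that these cyclins activate, also had estimates above 0 at NF stage 45. In controls at NF stage 45 cdk1.L read 46.2, 74.2 and 56.4 CPM, and in treated heads 61.8, 81.9 and 75.6 CPM. For cdk1.S the values were 51.2, 80.5 and 66.2 CPM in controls and 61.5, 86.5 and 80.5 CPM in treated heads. Treated libraries exceeded controls of the same number in both genes, and the groups overlapped because control replicate 2 lay above treated replicate 1. The log2 fold changes were 0.31 ± 0.15 for cdk1.L and 0.21 ± 0.16 for cdk1.S, with adjusted p-values of 0.943 and 1.00. Later, at NF stage 47, cdk1.L read 56.1, 49.5 and 50.8 CPM in controls and 49.9, 48.9 and 54.7 CPM in treated heads. There cdk1.S read 58.8, 52.4 and 60.7 CPM and 52.9, 63.0 and 61.5 CPM. Neither gene separated the treatments at that stage.

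Among spindle and checkpoint genes, kif11.L and bub1.L came next by p-value. Kif11, the Eg5 motor, pushes the spindle poles apart. At NF stage 45 kif11.L was at 32.2, 37.6 and 35.4 CPM in controls and 38.9, 49.0 and 42.3 CPM in treated heads, with no overlap and a log2 fold change of 0.31 ± 0.11 (adjusted p 0.750). By NF stage 47 it was at 35.3, 34.1 and 30.1 CPM in controls and 32.3, 36.4 and 38.7 CPM in treated heads. Bub1 is a kinase of the checkpoint that holds mitosis until all chromosomes are attached. Its L copy bub1.L was, at NF stage 45, at 19.5, 21.7 and 25.2 CPM in controls and 24.7, 30.1 and 29.0 CPM in treated heads, a log2 fold change of 0.33 ± 0.12 (adjusted p 0.763). Control replicate 3 lay just above treated replicate 1. By NF stage 47 bub1.L was at 19.6, 22.1 and 18.4 CPM and 18.8, 21.6 and 21.0 CPM, which overlapped.

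The chromosome genes were uneven between replicates. Ki-67, encoded by mki67, coats mitotic chromosomes and marks cycling cells. For mki67.S the values at NF stage 45 were 27.2, 28.3 and 38.6 CPM in controls and 35.6, 48.6 and 40.1 CPM in treated heads, and the log2 fold change was 0.40 ± 0.15 (adjusted p 0.773). Treated replicate 2 was the highest and control replicate 3 overlapped the treated group. For mki67.L they were 35.5, 46.9 and 50.5 CPM and 41.5, 72.9 and 49.2 CPM, with a log2 fold change of 0.30 ± 0.20. In mki67.L the third treated library lay slightly under its control. Topoisomerase II alpha, which untangles sister DNA, is encoded by top2a, and top2a.L stood at 105, 144 and 134 CPM in controls and 118, 201 and 141 CPM in treated heads at NF stage 45. Treated replicate 2 was again well above the other libraries, and the log2 fold change was 0.26 ± 0.18 (adjusted p 1.00).

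Replication members with the smallest p-values at NF stage 45 were pold1.L, pcna.L and pcna.S, none with an unadjusted p under 0.05. Pold1 is the catalytic subunit of the polymerase that copies the lagging strand, and PCNA is the sliding clamp that tethers it. In controls pold1.L read 15.2, 17.6 and 17.7 CPM, and in treated heads 16.2, 23.0 and 20.7 CPM, with a log2 fold change of 0.25 ± 0.15. The clamp gene pcna.L read 155, 202 and 173 CPM in controls and 167, 236 and 213 CPM in treated heads. For pcna.S the values were 114, 167 and 136 CPM and 132, 203 and 161 CPM. In all 3 genes the treated library was above the control of its own number and the groups overlapped. Log2 fold changes were 0.22 ± 0.14 for pcna.L and 0.25 ± 0.17 for pcna.S. The helicase subunit mcm2 differed less, with 62.7, 72.0 and 69.6 CPM in controls and 67.4, 73.4 and 72.0 CPM in treated heads for mcm2.L. For mcm2.S the controls stood at 20.8, 25.1 and 27.4 CPM and the treated heads at 20.6, 21.8 and 23.6 CPM. The estimates for the homeologs pointed in opposite directions, at 0.06 ± 0.10 and -0.15 ± 0.13.

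**Figure D3:**
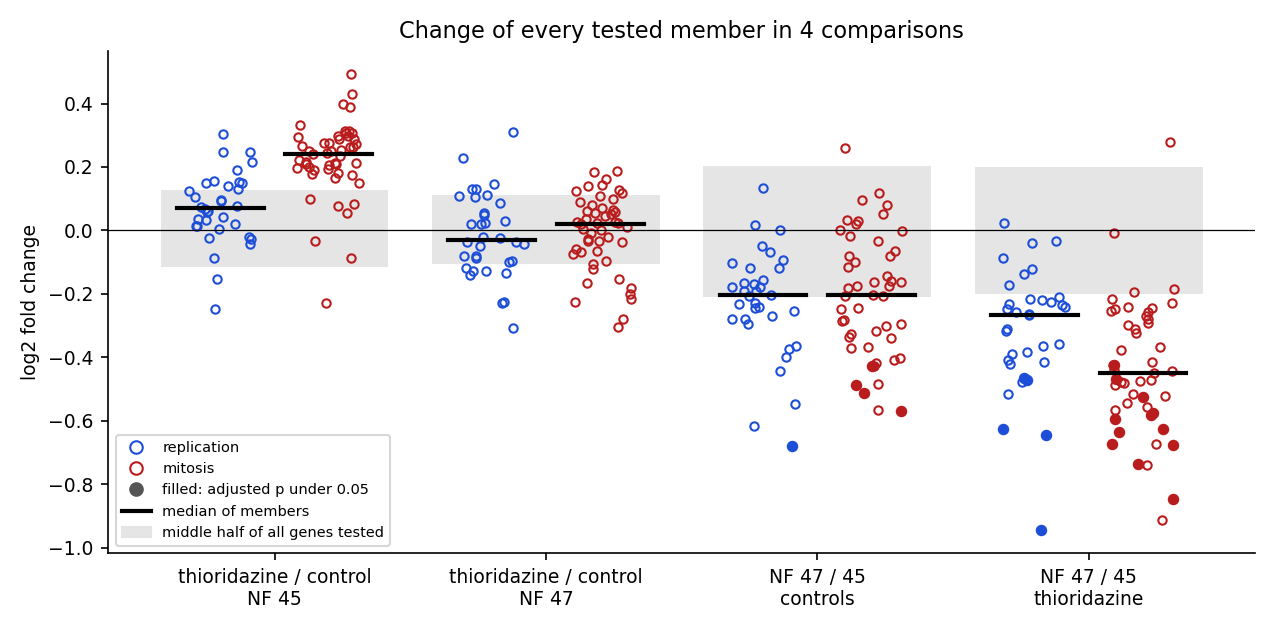
Log2 fold change of each tested member (34 replication in blue, 49 mitosis in red) in 4 comparisons, with filled points for adjusted p under 0.05, a black line at the median of each list and a grey box from the first to the third quartile of all genes. The mitosis median is 0.24 for thioridazine at NF stage 45 and -0.45 for NF stage 47 against 45 in treated heads, and the filled points all lie below 0 in the stage comparisons.

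For thioridazine against control at NF stage 47, the medians of both lists lay near 0. No member was called by edgeR or by DESeq2, and none had an unadjusted p under 0.05, a level reached by 1.94% of all genes as higher and 1.59% as lower. After adjustment 0.0739% of all genes were called, all higher in treated heads. The libraries of the treatments lay apart for 4 members, with cdc45.L and gins2.L above controls, against 4.78% of all genes, and ccnb2.L and cenpe.L below, against 4.82%. The fits with the replicate number as a block also called no member, and called 51 of all genes, or 171 within each stage, in place of 20. Fitted levels were higher for 43 members and lower for 40, with median log2 fold changes of -0.03 for replication and 0.02 for mitosis, with the median of all genes within 0.01 of 0. Without treated replicate 1 of NF stage 47 the replication median was 0.08. The median SE of a member was 0.15 on this scale, and a p-value that misses the threshold does not show that values did not differ.

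The 3 replication members with the smallest p-values at NF stage 47 did not share a direction. Cdc45 joins the MCM ring when an origin fires, and cdc45.L read 13.4, 12.2 and 12.6 CPM in controls and 15.1, 14.3 and 15.3 CPM in treated heads. Those groups did not overlap, and the log2 fold change was 0.23 ± 0.13 (adjusted p 1.00). Cyclin E2, which brings Cdk2 into S phase, was lower in the treated mean, and ccne2.S read 7.23, 9.92 and 9.76 CPM in controls and 6.62, 7.05 and 8.22 CPM in treated heads. The helicase subunit mcm4.S read 20.5, 20.8 and 22.1 CPM and 15.3, 16.7 and 22.4 CPM. Both of these overlapped, with log2 fold changes of -0.31 ± 0.19 for ccne2.S and -0.23 ± 0.15 for mcm4.S. Earlier, cdc45.L had been at 13.1, 15.2 and 15.2 CPM in controls and 12.7, 16.4 and 14.9 CPM in treated heads, and mcm4.S at 24.0, 27.8 and 30.4 CPM and 23.2, 24.4 and 29.8 CPM, at NF stage 45.

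For mitosis they were ncaph.L, cenpe.L and ccnb2.L, each with a lower mean in treated heads. Ncaph is a subunit of condensin I, Cenpe a motor that brings chromosomes to the spindle equator, and cyclin B2 a partner of Cdk1. The condensin gene ncaph.L stood at 11.97, 13.8 and 14.1 CPM in controls and 11.3, 12.8 and 10.6 CPM in treated heads. For cenpe.L the controls stood at 19.2, 19.6 and 17.6 CPM and the treated heads at 17.6, 14.4 and 16.4 CPM. For ccnb2.L the values were 9.89, 9.39 and 9.11 CPM and 7.63, 8.15 and 8.48 CPM. The groups overlapped for ncaph.L, touched without overlap for cenpe.L and lay apart for ccnb2.L. Log2 fold changes were -0.20 ± 0.14, -0.22 ± 0.16 and -0.23 ± 0.17 in that order, each with an adjusted p of 1.00. The homeolog ncaph.S had an estimate of 0.18, opposite to that of ncaph.L, the widest gap between copies of any pair in this comparison. At the earlier stage ccnb2.L had stood at 8.15, 12.3 and 9.94 CPM in controls and 10.3, 14.2 and 11.4 CPM in treated heads.

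From NF stage 45 to 47 most members had lower estimates in control heads, and a few passed the test. Of the 83 members, 5 were called and all were lower, where 3.21% of all genes were called lower and 3.03% higher, or 6.24% in all. They were incenp.S, tpx2.L, aurka.S and kif11.S of the mitosis list and ccne2.S of the replication list. The fitted level was lower for 71 members and higher for 12, and 22 were lower at an unadjusted p under 0.05 (11.5% of all genes) with none higher (9.83%). Medians of the log2 fold change were -0.21 for replication and -0.20 for mitosis, with -0.01 over all genes. In 18 members all libraries of NF stage 47 lay below those of NF stage 45, against 13.3% of all genes. In none did they all lie above, against 11.7% of all genes. The count of calls was small enough to turn on single libraries. It was 8 without control replicate 1 of NF stage 45, and 1 without control replicate 2 or 3 of that stage or any control of NF stage 47. Of the 5 calls, that of incenp.S held under all 19 alternatives, while tpx2.L lost its call under 6, aurka.S and ccne2.S under 11 each and kif11.S under 13. The count was 2 without treated replicate 3 of NF stage 45 or without any treated library of NF stage 47, 2 with RLE scaling, and 1 when only the groups compared were fitted or homeologs were summed.

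Heads treated with thioridazine showed more called members over the same interval. There 17 of the 83 were called, all lower, against 2.77% of all genes called lower, 2.09% higher and 4.86% in all, and they included all 5 called in controls. The mitosis list held 12 of them and the replication list 5. Fitted levels were lower for 81 members and higher for 2, cdc45.L at 0.02 ± 0.13 and birc5.S at 0.28 ± 0.32 (log2 fold change). Medians were -0.45 for mitosis and -0.27 for replication, with -0.01 over all genes. At an unadjusted p under 0.05, 51 were lower (10.8% of all genes) and none higher (8.72%). In 48 members all libraries of NF stage 47 lay below those of NF stage 45, against 13.8% of all genes. In none did they all lie above, against 11.4% of all genes. Calls were lost under 13 of 19 alternatives for cdt1.L, 11 for cdc6.L, 10 for tpx2.S, 9 for mki67.S and 7 for cdt1.S, and under 0 to 6 for the other 12. Leaving out a single treated library gave 3 calls without replicate 3 of NF stage 45 or replicate 1 of NF stage 47, 6 without replicate 2 of either stage, 9 without replicate 3 of NF stage 47 and 14 without replicate 1 of NF stage 45.

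In the passenger complex, incenp.S fell in both treatments. Incenp is the scaffold of the complex that corrects chromosome attachment and later directs cytokinesis. In controls incenp.S (gene 398822) stood at 34.7, 44.5 and 40.1 CPM at NF stage 45 and 26.3, 27.8 and 26.2 CPM at NF stage 47, a log2 fold change of -0.57 ± 0.11 (adjusted p 0.0102). In treated heads it stood at 43.6, 49.2 and 50.5 CPM and then 26.3, 29.3 and 30.5 CPM, a log2 fold change of -0.74 ± 0.11 (adjusted p 0.00342). Both drops left no overlap between the stages. The gene remained called in both comparisons under each of the 19 alternatives, with adjusted p-values up to 0.0488 in controls and 0.0225 in treated heads. Aurora B, encoded by aurkb, is the kinase of this complex, and aurkb.L (gene 398457) stood at 61.7, 64.0 and 64.9 CPM and then 42.8, 36.8 and 44.0 CPM in treated heads. It fell by 0.62 on the log2 scale (SE 0.10, adjusted p 0.00520), with no overlap. In controls aurkb.L stood at 52.9, 57.3 and 53.1 CPM and then 47.0, 37.7 and 44.6 CPM, a log2 fold change of -0.34 ± 0.10 that edgeR did not call (adjusted p 0.0651), while DESeq2 and the replicate block did. The difference between the treatments in that change was -0.29 ± 0.14 and was not called.

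The 12 spindle and cytokinesis members all had lower estimates at NF stage 47 than 45 in treated heads, and 4 were called. In that comparison 2.77% of all genes were called lower. Kif11.S (gene 397908) stood at 42.2, 57.9 and 50.5 CPM and then 37.0, 36.6 and 38.3 CPM in controls, and at 49.8, 61.2 and 59.02 CPM and then 32.1, 37.4 and 37.0 CPM in treated heads. All libraries of the later stage lay below those of the earlier stage in both. The log2 fold changes were -0.43 ± 0.12 in controls (adjusted p 0.0490) and -0.68 ± 0.12 in treated heads (adjusted p 0.00760). Its homeolog kif11.L changed less in the point estimate, at -0.08 ± 0.11 in controls and -0.28 ± 0.11 in treated heads, and was called in neither. Tpx2 activates Aurora A and helps build the spindle, and tpx2.L (gene 398174) stood at 31.8, 44.5 and 41.7 CPM and then 28.6, 27.9 and 27.7 CPM in controls. In treated heads tpx2.L stood at 37.5, 44.2 and 43.5 CPM and then 24.5, 29.6 and 28.9 CPM. Log2 fold changes were -0.49 ± 0.13 and -0.59 ± 0.13, with adjusted p-values of 0.0342 and 0.0176.

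Aurora A itself matures the spindle poles. Its gene aurka.S (gene 398349) stood at 23.0, 32.1 and 26.1 CPM and then 18.9, 19.3 and 18.7 CPM in controls, and at 26.1, 35.8 and 32.2 CPM and then 18.8, 22.1 and 18.1 CPM in treated heads. The stages did not overlap in either. The log2 fold change was -0.51 ± 0.14 in controls (adjusted p 0.0459) and -0.68 ± 0.14 in treated heads (adjusted p 0.0166). Of the condensin genes, ncaph.L fell in treated heads from 14.7, 19.4 and 17.6 CPM to the values given above, a log2 fold change of -0.58 ± 0.13 (adjusted p 0.0264). Its controls had been at 16.8, 16.1 and 16.1 CPM at NF stage 45, and their change of -0.30 ± 0.13 was not called. The homeolog ncaph.S had stage estimates of -0.16 in controls and -0.29 in treated heads and was called in neither. Mki67.S was at 34.7, 27.2 and 31.5 CPM in controls and 24.9, 27.8 and 30.4 CPM in treated heads at NF stage 47. Among treated libraries it fell from one stage to the next, with -0.58 ± 0.15 (adjusted p 0.0430, lost under 9 of 19 alternatives), and its control estimate was -0.02 ± 0.15.

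The remaining called mitosis genes were ccnb2.S, incenp.L, kif23.L, plk1.S and tpx2.S, all in treated heads. Plk1 acts from mitotic entry to cytokinesis, and plk1.S stood at 51.7, 60.0 and 61.4 CPM and then 35.6, 37.7 and 38.3 CPM, a log2 fold change of -0.63 ± 0.13 (adjusted p 0.0135). Cyclin B2 had the largest estimate among them, with ccnb2.S at 9.56, 11.1 and 9.78 CPM and then 5.20, 5.12 and 6.61 CPM, a log2 fold change of -0.85 ± 0.20 (adjusted p 0.0264). Kif23, a motor of the central spindle needed for cytokinesis, gave kif23.L values of 33.9, 33.8 and 35.5 CPM and then 25.7, 27.0 and 24.1 CPM. In all 3 genes no treated library of NF stage 47 reached the lowest of NF stage 45. For kif23.L, incenp.L and tpx2.S the log2 fold changes were -0.42 ± 0.10, -0.53 ± 0.13 and -0.47 ± 0.12, with adjusted p-values of 0.0251, 0.0307 and 0.0405. Control estimates between stages were below 0 too, at -0.40 for plk1.S, -0.28 for ccnb2.S and -0.18 for kif23.L. Those of incenp.L and tpx2.S were -0.34 and -0.25. None of these genes was called in controls or for the difference between the treatments in this change. The widely used proliferation markers top2a.L, mki67.L, cdk1.L and cdk1.S were not called by edgeR between stages, although DESeq2 called mki67.L and cdk1.L in treated heads, as did 5 and 4 other alternatives. Their estimates in treated heads were -0.42 ± 0.18, -0.74 ± 0.20, -0.52 ± 0.15 and -0.37 ± 0.16 (log2 fold change), with adjusted p-values of 0.212, 0.0511, 0.0607 and 0.209. At NF stage 47 top2a.L stood at 137, 130.3 and 121 CPM in controls and 92.5, 125 and 126 CPM in treated heads, and mki67.L at 38.5, 32.7 and 37.9 CPM and 26.5, 33.2 and 38.6 CPM.

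**Figure D4:**
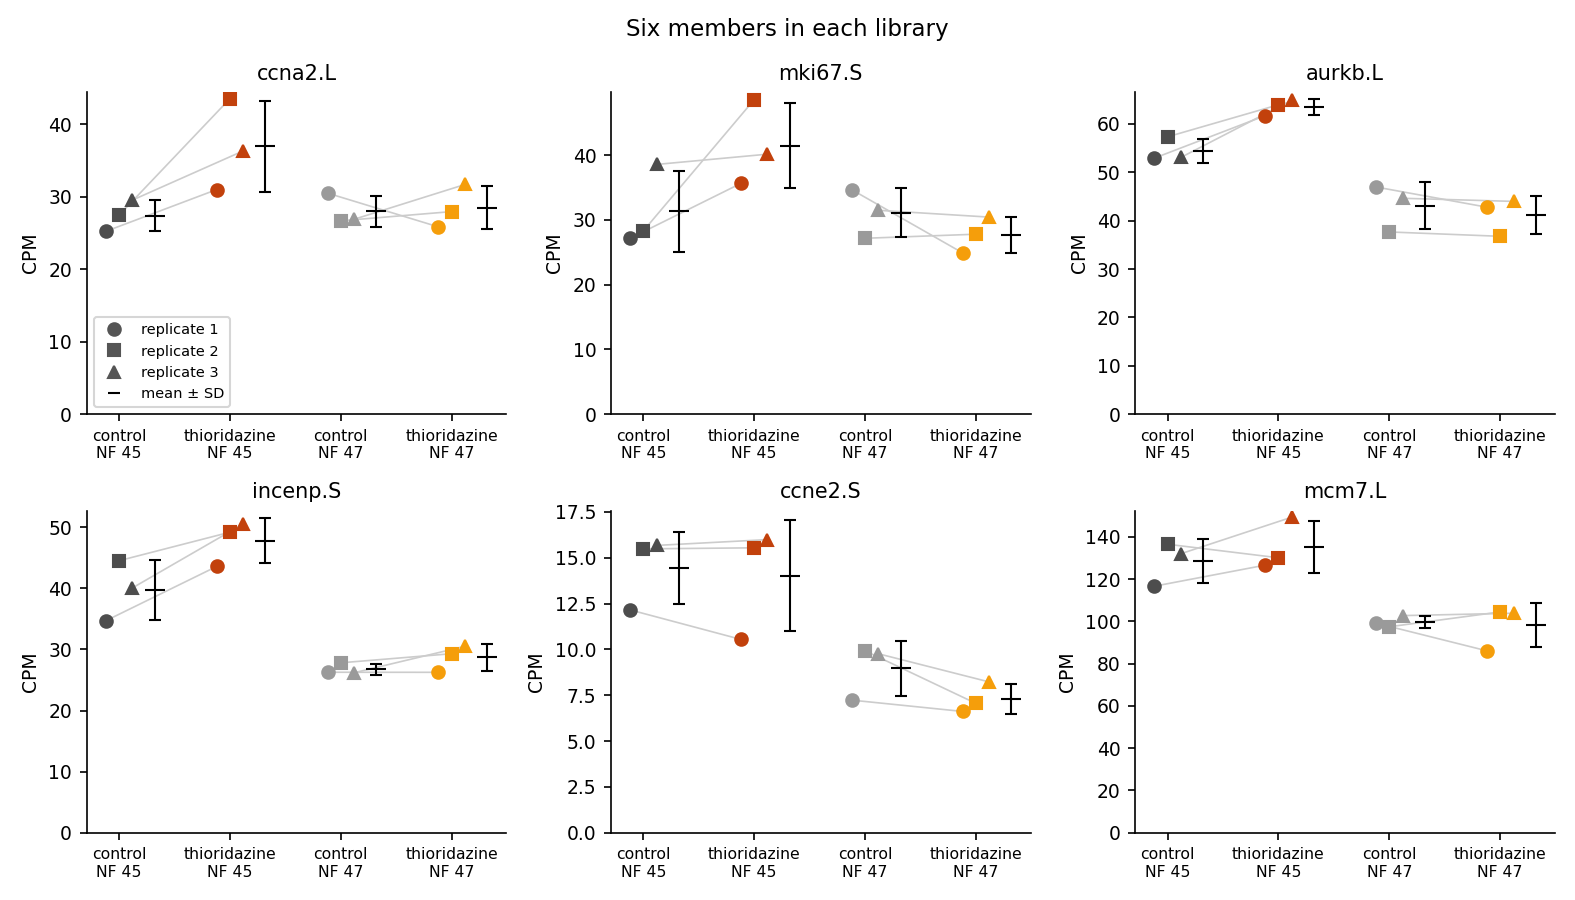
CPM of ccna2.L, mki67.S, aurkb.L, incenp.S, ccne2.S and mcm7.L in each of the 12 libraries, by group; symbols mark replicates 1, 2 and 3, grey lines join the same number within a stage, and black bars give the mean and SD. For aurkb.L, incenp.S, ccne2.S and mcm7.L all treated libraries of NF stage 47 lie below those of NF stage 45.

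In the replication list, the calls in treated heads fell on licensing factors, a helicase subunit and an S-phase cyclin. Ccne2.S (gene 495419) had the largest estimate of any member, standing at 10.54, 15.5 and 15.99 CPM at NF stage 45 before the NF stage 47 values given above. It fell by 0.95 on the log2 scale (SE 0.19, adjusted p 0.0140), a 1.93-fold lower level. In controls it stood at 12.2, 15.5 and 15.7 CPM at NF stage 45, and its log2 fold change was -0.68 ± 0.19 (adjusted p 0.0449). That control call was lost under 11 of 19 alternatives, where adjusted p-values reached 0.172. The homeolog ccne2.L changed less in its estimates, at -0.19 ± 0.16 in controls and -0.41 ± 0.16 in treated heads, and was called in neither.

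Mcm7.L (gene 380414), one of the subunits of the MCM ring, stood at 127, 130.1 and 149 CPM and then 86.1, 104 and 104 CPM in treated heads. It stood at 117, 136 and 132 CPM and then 99.2, 97.4 and 103 CPM in controls. Neither group overlapped between the stages. The log2 fold change was -0.46 ± 0.11 in treated heads (adjusted p 0.0242) and -0.36 ± 0.11 in controls (adjusted p 0.0567). By edgeR it was called in treated heads, and DESeq2, upper-quartile scaling and the replicate block called it in controls too. Whether those estimates differed was tested, and the difference was -0.10 ± 0.15 (unadjusted p 0.512) and was not called. By contrast mcm2.L stood at 68.8, 59.1 and 60.7 CPM in controls and 59.7, 71.0 and 69.6 CPM in treated heads at NF stage 47, and its estimates between stages were -0.12 ± 0.10 and -0.09 ± 0.10. For mcm2.S the NF stage 47 values were 20.0, 19.2 and 22.9 CPM and 19.2, 21.6 and 23.7 CPM.

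The loading factors Cdc6 and Cdt1 bring the MCM ring to origins. In treated heads cdt1.S (gene 108715404) stood at 23.5, 32.5 and 29.3 CPM and then 17.7, 14.6 and 23.1 CPM, a log2 fold change of -0.63 ± 0.16 (adjusted p 0.0394). The third library of NF stage 47 came close to the first of NF stage 45 without passing it. In controls cdt1.S stood at 24.8, 24.3 and 27.5 CPM and then 21.5, 19.1 and 24.0 CPM, which also did not overlap, and its estimate of -0.25 ± 0.16 was not called. The homeolog cdt1.L stood at 19.2, 19.0 and 19.2 CPM and then 13.8, 14.7 and 12.8 CPM in treated heads, with a log2 fold change of -0.47 ± 0.13 (adjusted p 0.0465, lost under 13 of 19 alternatives). For cdc6.L the treated values were 19.2, 24.7 and 19.8 CPM and then 12.02, 15.9 and 12.9 CPM, with -0.65 ± 0.17 (adjusted p 0.0455, lost under 11 of 19). Control estimates between stages were -0.27 for cdt1.L and -0.44 for cdc6.L, and neither was called. Cdc6.S was among the 3 replication members with the smallest p-values in controls, at 8.77, 13.1 and 12.4 CPM and then 7.15, 7.68 and 7.56 CPM, a log2 fold change of -0.62 ± 0.21 (adjusted p 0.0974). In treated heads cdc6.S stood at 7.24, 10.3 and 11.4 CPM and then 5.81, 7.39 and 8.99 CPM, which overlapped.

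The polymerase group held no called member in any comparison. Of all genes, 3.21% were called lower between stages in controls and 2.77% in treated heads. With 11 genes, the lack of calls does not set this group apart from the other replication members. All 11 stage estimates in treated heads lay below 0, from -0.36 to -0.14. The clamp genes pcna.L and pcna.S stood at 187, 158 and 161 CPM and 143, 127 and 122 CPM in controls at NF stage 47. In treated heads they stood at 165, 193 and 202 CPM and 115, 153 and 161 CPM. Treated replicate 1 was under its control and replicates 2 and 3 were over theirs in both genes. Between stages in treated heads pcna.L was at -0.14 ± 0.14 and pcna.S at -0.21 ± 0.17 (log2 fold change). Pold1.L stood at 16.5, 15.0 and 13.6 CPM in controls and 14.0, 16.96 and 17.5 CPM in treated heads at NF stage 47.

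**Figure D5:**
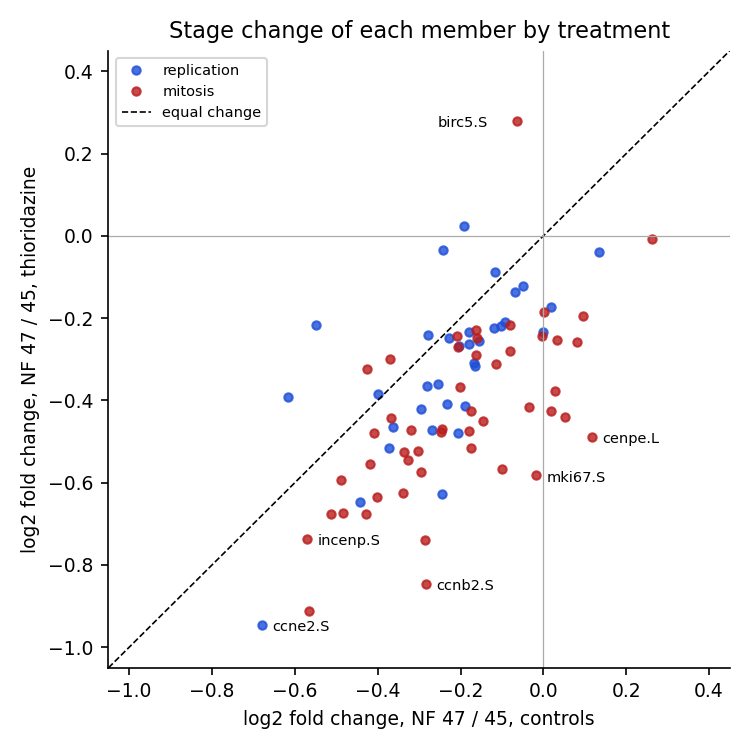
Log2 fold change of each tested member from NF stage 45 to 47 in controls (x axis) and in thioridazine heads (y axis), replication in blue and mitosis in red, with a dashed line for equal change. Points below the dashed line, 73 of 83, had the lower estimate in treated heads.

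Whether the fall between stages was steeper in treated heads was tested as the difference of the thioridazine effects between the stages, which is the same contrast. No member was called by edgeR or DESeq2, and 0% of all genes were called. At an unadjusted p under 0.05 there were 3 members, all steeper in treated heads, where 0.969% of all genes were lower at that level. The estimate was below 0 for 46 of 49 mitosis members, with a median of -0.22, and for 27 of 34 replication members, with a median of -0.10, where the median of all genes lay within 0.01 of 0. The 17 calls in treated heads against 5 in controls therefore do not show that the stage change differed for any one gene. The 46 and 27 counts rest on the same libraries as the treatment comparison at NF stage 45. Without control replicate 1 or treated replicate 2 of that stage, 63 and 62 of the 83 members had an estimate below 0.

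The 3 members were cenpe.L, mki67.S and ccna2.L. At NF stage 45 cenpe.L stood at 16.8, 15.4 and 19.6 CPM in controls and 18.6, 29.3 and 20.2 CPM in treated heads. Treated replicate 2 was far above the other libraries. The difference of effects was -0.61 ± 0.23 for cenpe.L, -0.56 ± 0.22 for mki67.S and -0.41 ± 0.18 for ccna2.L (log2), with unadjusted p-values of 0.0189, 0.0199 and 0.0429 and adjusted p-values of 1.00 for all. In the replication list the smallest p-values belonged to cdt1.S, pole.L and mcm10.L, with differences of -0.38 ± 0.23, -0.23 ± 0.15 and -0.27 ± 0.21. Pole is the polymerase of the leading strand, and pole.L stood at 21.5, 22.6 and 20.7 CPM in controls and 23.0, 25.4 and 23.4 CPM in treated heads at NF stage 45. By NF stage 47 pole.L stood at 23.1, 20.4 and 21.4 CPM and 18.0, 21.7 and 21.4 CPM. Mcm10.L, which helps start unwinding, stood at 11.1, 14.6 and 12.8 CPM and 12.6, 15.3 and 14.8 CPM at NF stage 45 and at 12.47, 10.1 and 10.8 CPM and 10.2, 9.57 and 10.9 CPM at NF stage 47, controls first. For pole.L the treated heads went from just above all controls to a range that overlapped them.

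Averaged over both stages, thioridazine heads differed from controls in no member by edgeR or DESeq2, where 0.144% of all genes were called, 0.137% as higher and 0.00739% as lower. The block raised the count of all genes called from 39 to 121, or 599 within each stage, and that of members stayed at 0. At an unadjusted p under 0.05 there were 4 higher members, kif11.L, ccna2.L, incenp.S and cdc20.S, against 3.19% of all genes, and none lower, against 3.7%. The mean effects were 0.21 ± 0.08, 0.23 ± 0.09 and 0.18 ± 0.08 (log2) for the first 3, and in replication 0.18 ± 0.10 for pcna.L had the smallest p. Mitosis members had a median of 0.12 and replication members of 0.02, with 0.01 over all genes.

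Ranked by group mean, treated heads at NF stage 45 were the highest of the 4 groups for 71 of 83 members, or 85.5%, where 25.3% of all genes had their highest mean there. The share was 45 of 49 in the mitosis list and 26 of 34 in the replication list. The lowest mean fell in controls at NF stage 47 for 38 members and in treated heads at NF stage 47 for 38. By role, the 10 mitotic and checkpoint kinases had median stage estimates of -0.37 in controls and -0.55 in treated heads. The licensing factors stood at -0.40 and -0.47 over 5 genes. The MCM ring had medians of -0.26 and -0.28 over 8 genes and the polymerase group -0.16 and -0.23 over 11. For thioridazine at NF stage 45 the medians were 0.28 over the 6 cyclin and Cdk1 genes, 0.27 over the 9 chromosome genes and 0.21 over the 12 spindle and cytokinesis genes. Centromere, anaphase and kinase genes had 0.25, 0.23 and 0.22. In replication they were 0.15 for helicase activation, 0.13 for nucleotide supply and 0.09 for the polymerase group. Licensing, the MCM ring and the S-phase cyclin had 0.06, 0.05 and 0.03. The transcription regulators foxm1.S, mybl2.L and mybl2.S had a median of -0.03 there.

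Where most members moved one way, both homeologs of most pairs did too. Of 31 pairs with both copies tested, 30 had lower estimates for both from NF stage 45 to 47 in treated heads, and 26 in controls. Of the 83 single members, 81 and 71 were lower in these comparisons. The share over homeolog pairs of all genes was not calculated. For thioridazine at NF stage 45, 25 pairs were higher for both, and at NF stage 47 both copies were higher in 10, both lower in 8 and opposite in 13. The widest gap between copies in the stage estimates was that of ccne2, at 0.53 in treated heads and 0.49 in controls. Of the unlisted copies, ccnb1.2.S stood at 45.1, 65.0 and 53.2 CPM and then 29.4, 34.0 and 36.2 CPM in treated heads, a log2 fold change of -0.71 ± 0.14 (adjusted p 0.0119). Ccnb1.2.L fell there as well, with -0.56 ± 0.13 (adjusted p 0.0248), and so did zmcm3.L, with -0.47 ± 0.11 (adjusted p 0.0239). The copies mcm6.2.L, birc5l.S and rrm2.2.L were not called there, at -0.10 ± 0.11, -0.39 ± 0.13 and -0.48 ± 0.21. Nor were mcm6.2.S, birc5l.L and rrm2.1.L, at -0.29 ± 0.11, -0.31 ± 0.19 and 0.06 ± 0.30. Of all genes, 2.77% were called lower in this comparison. In controls ccnb1.2.S, ccnb1.2.L and zmcm3.L had stage estimates of -0.35 ± 0.14, -0.38 ± 0.13 and -0.38 ± 0.11, with no call. Their NF stage 47 libraries lay wholly below those of NF stage 45. Of all genes, 13.3% lay wholly below and 11.7% wholly above. Control estimates of mcm6.2.L, birc5l.S and rrm2.2.L were -0.06 ± 0.11, -0.11 ± 0.13 and -0.43 ± 0.21, also not called. Those of mcm6.2.S, birc5l.L and rrm2.1.L were -0.30 ± 0.11, -0.41 ± 0.19 and 0.27 ± 0.30, without a call. The later libraries of mcm6.2.S and birc5l.L lay wholly below the earlier ones, and those of rrm2.1.L wholly above. The difference between the treatments in the stage change was called for none of these copies.

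Further genes of the same pathways, on lists drawn up by function, had most of their calls in the stage comparison of treated heads. Of 98 other mitosis genes tested, none was called for thioridazine at either stage, 1 was called lower between stages in controls and 18 in treated heads, and none higher. Of 73 other replication genes the corresponding counts were 4 and 8, where 3.21% and 2.77% of all genes were called lower in controls and treated heads. Stage estimates of the 98 other mitosis genes were higher for 16 in controls and 4 in treated heads, against 48.6% and 49.2% of all genes. They were lower for 82 and 94, with medians of -0.18 and -0.36, beside -0.01 over all genes in both. The difference between the treatments in that change was called for none of them. At NF stage 45, 92 of the 98 other mitosis genes had a higher estimate in treated heads, with a median of 0.20, against 53.3% of all genes, and 16 were higher at an unadjusted p under 0.05, against 2.25%. The smallest p-values there were those of depdc1.S at 0.54 ± 0.17 and tacc3.L, a spindle pole protein, at 0.32 ± 0.11. In treated heads dlgap5.S, a spindle microtubule protein, stood at 25.3, 25.8 and 29.2 CPM and then 15.998, 18.6 and 15.7 CPM, a log2 fold change of -0.68 ± 0.12 (adjusted p 0.00742). Ndc80.S, of the kinetochore complex that grips microtubules, fell by 0.79 (SE 0.15, adjusted p 0.0124). In controls the mitosis call was lmnb1.L, encoding lamin B1 of the nuclear envelope, at -0.38 ± 0.09 (adjusted p 0.0283). The replication genes with the smallest p in both treatments were ticrr.S, which helps origins fire, and msh6.L, of mismatch repair. In controls ticrr.S was at -0.60 ± 0.13 and msh6.L at -0.58 ± 0.11 (adjusted p 0.0148 and 0.00959), and in treated heads at -0.66 ± 0.13 and -0.56 ± 0.11 (adjusted p 0.0116 and 0.0125).

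Genes that restrain the cell cycle moved both ways. Of 36 tested, treated heads had 3 called higher at NF stage 47 than 45, gadd45a.S, gadd45g.L and gadd45g.S, and 4 called lower, e2f7.L, e2f7.S, e2f8.L and rbl1.L, against 2.09% and 2.77% of all genes. Gadd45 proteins respond to stress, while E2f7, E2f8 and the Rb relative Rbl1 repress E2F targets. Gadd45g.L stood at 22.7, 24.5 and 24.2 CPM and then 35.2, 33.8 and 32.5 CPM in treated heads, with no overlap. Controls had 2 called lower, against 3.21% of all genes. They were e2f4.S at -0.55 ± 0.12 and e2f7.S at -0.45 ± 0.12 (adjusted p 0.0172 and 0.0352). In treated heads e2f7.S was at -0.63 ± 0.12 and rbl1.L at -0.50 ± 0.10 (adjusted p 0.00990 and 0.0124). Of 14 genes for G1 cyclins, kinases and their regulators, e2f3.L, e2f3.S and e2f5.L were called lower in controls and e2f3.L and e2f3.S in treated heads. The shares of all genes called lower were 3.21% in controls and 2.77% in treated heads. E2f3, an activator of S-phase genes, gave e2f3.S values of 21.3, 25.5 and 22.6 CPM and then 14.0, 14.4 and 16.1 CPM in controls, and 22.5, 23.1 and 28.2 CPM and then 13.8, 16.3 and 17.5 CPM in treated heads.

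No gene of those 4 lists was called by edgeR for thioridazine at NF stage 47. At an unadjusted p under 0.05, 5 of the 36 restraining genes were higher, against 1.94% of all genes, and 1 lower, against 1.59%. For further genes with the smallest p-values of these lists, log2 fold changes are given in order of comparison. None of those named for thioridazine or for the difference of effects was called. For thioridazine at NF stage 45 they were sesn1.L at 0.19 ± 0.10, ccnd2.S at 0.27 ± 0.18, e2f5.L at -0.12 ± 0.11, ticrr.L at 0.27 ± 0.11 and rfc2.L at 0.31 ± 0.15. Sesn1 is a stress-induced sestrin, Ccnd2 a G1 cyclin and Rfc2 a subunit of the loader of the PCNA clamp. For thioridazine at NF stage 47 they were gadd45g.L at 0.41 ± 0.12, e2f5.L at 0.32 ± 0.11, mycn.S at 0.30 ± 0.11, cdc25a.S at -0.80 ± 0.42, iqgap3.L at -0.24 ± 0.14, cdc7.L at -0.29 ± 0.13 and dnmt1.L at -0.24 ± 0.11. Mycn promotes growth and proliferation, Cdc25a activates Cdks, Cdc7 fires origins and Dnmt1 copies DNA methylation to the new strand. For the difference of effects they were gadd45g.L at 0.39 ± 0.17, gadd45g.S at 0.44 ± 0.19, e2f5.L at 0.44 ± 0.15, mycn.S at 0.37 ± 0.15, iqgap3.L at -0.59 ± 0.19, kif20b.S at -0.58 ± 0.19, donson.L at -0.48 ± 0.23 and asf1b.S at -1.38 ± 0.68, each with an adjusted p of 1.00. For the mean of both stages they were sesn1.L at 0.23 ± 0.07, mycn.S at 0.12 ± 0.08, e2f5.L at 0.10 ± 0.08, ckap2.L at 0.22 ± 0.08, sgo2.L at 0.31 ± 0.12, cdc7.L at -0.23 ± 0.09 and rfc2.L at 0.22 ± 0.10. Between stages in controls e2f5.L fell (-0.42 ± 0.11, adjusted p 0.0333) and cdca5.S, encoding a cohesion factor, was at -0.44 ± 0.13 (adjusted p 0.0527). In treated heads e2f3.L fell (-0.46 ± 0.10, adjusted p 0.0211).

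Summed levels of markers of other cell types were uneven between the groups. At NF stage 45 the 13 lens markers summed to 836 to 1036 CPM in treated heads and 1083 to 2043 CPM in controls, with 13 of 13 group means lower. Skeletal muscle markers summed to 5628 to 7240 CPM against 6902 to 10771 CPM, with 20 of 21 means lower, and neuron markers to 2051 to 2514 CPM against 2426 to 2598 CPM, with 19 of 20 lower. Myeloid markers summed to 124 to 164 CPM in treated heads and 98.3 to 124 CPM in controls, with 12 of 15 means higher. Markers of neural and retinal progenitors, cells that divide at these stages, summed to 1502 to 1619 CPM in treated heads and 1439 to 1612 CPM in controls, with 10 of 20 means higher. From NF stage 45 to 47 in treated heads those progenitor markers went from 1502 to 1619 CPM to 1523 to 1979 CPM, with 10 of 20 means higher. Over that interval in controls the progenitor sums went from 1439 to 1612 CPM to 1356 to 1580 CPM, with 11 of 20 means lower.

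Group means of liver and red blood cell markers were mostly higher in treated heads at NF stage 45 and lower at NF stage 47. The replicates disagreed at NF stage 45. Treated sums of liver markers there were 10.4, 1.18 and 0.247 times those of controls in replicates 1, 2 and 3. For red blood cell markers the ratios were 1.46, 1.18 and 0.860. Liver markers summed at NF stage 45 to 122 to 624 CPM in controls and 96.5 to 1262 CPM in treated heads, with 19 of 19 means higher in treated heads. By NF stage 47 they summed to 1284 to 2392 CPM and 152 to 1203 CPM, with 18 of 19 lower in treated heads, and 18 of 19 means were higher at the later stage in controls. Red blood cell markers, at 1667 to 4569 CPM between libraries, had 14 of 16 means higher in treated heads at NF stage 45 and 15 of 16 lower at NF stage 47, and 13 of 16 were higher at the later stage in controls. At NF stage 47 progenitor markers were higher in treated heads in 19 of 20 means, lens markers in 11 of 13 and myeloid markers in 12 of 15, while neuron markers were lower in 18 of 20 and muscle markers in 17 of 21. Between stages in controls lens markers were lower in 12 of 13 means and muscle markers in 17 of 21, and neuron markers were higher in 13 of 20 and myeloid markers in 13 of 15. In treated heads lens markers were higher in 12 of 13, myeloid markers in 13 of 15 and liver markers in 15 of 19. There neuron markers were also higher in 15 of 20 and muscle markers in 13 of 21, while red blood cell markers were lower in 10 of 16. Head tissue markers were lower in treated heads in 14 of 18 means at NF stage 45 and 6 of 18 at NF stage 47. Between stages they were lower in 15 of 18 in controls and 9 of 18 in treated heads. None of these lists held a marker at 0 in all libraries. Their part in the members' differences was not tested.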

How the data were processed

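RNA-seq of 12 whole-head libraries was analysed from the deposited tables of raw counts per gene. The authors made these counts with Trimmomatic, HISAT2 and HTSeq and used DESeq2, per the submitters' processing notes. Per the labels' protocols, RNA was purified with RNeasy and made into TruSeq v2 libraries, a kit that keeps no strand, and read as 100-bp single-end reads on a HiSeq 2500. Which build and annotation were used, and how reads fitting several genes were counted, is not given in the sources used for this work. Genes were named by their identifiers from the RefSeq gene table of Xenopus_laevis_v10.1, which named 33597 of 37018 and was used for names only. The 3 tables with Windows line ends were read the same way as the others.

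Counts were scaled by TMM and fitted with edgeR 4.0.16 (R 4.3.3, limma 3.58.1), with genes kept by its default filter, leaving 27050, and robust quasi-likelihood dispersions over all 12 libraries in 1 model with a coefficient for each group. The contrasts tested were thioridazine against control at each stage and as the mean of both, stage 47 against 45 in each treatment, and the difference of the thioridazine effects. Benjamini-Hochberg adjustment ran over all genes tested, with 0.05 as the threshold, and the SE is the log2 fold change divided by the root of the F statistic. Levels are TMM-scaled CPM. Library totals ran from 11998636 to 16933777 counts, and counting error weighs most on the members with the lowest levels. The fitting code was tested on simulated data.

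The members and gene lists were chosen with earlier results of these data known. Named with values were the tested homeologs of ccna2, cdk1, ccnb1, mcm2, pcna, top2a and mki67, and in each contrast the 3 replication and 3 mitosis members, and the 2 genes of each other list, with the smallest p. The remaining called members, the other called genes named and the unlisted copies were added after their values were seen. Genes of the other lists are given mostly by fold change, not by library, and 1 gene that the rule names is not reported here.

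Whether equal replicate numbers pair libraries was checked by correlating deviations from the group means. Between control and treated libraries of replicates 1, 2 and 3 the correlations were 0.336, 0.586 and 0.326 at NF stage 45 and 0.180, 0.225 and 0.471 at NF stage 47, so numbers were taken as pairs between treatments, from the data and not from the labels. The reported fit has no term for the number, so its SE and p-values do not use this pairing. Only the replicate block, fitted as an alternative, does. Between stages, controls gave 0.181, 0.014 and 0.352, treated heads gave 0.562, 0.040 and 0.087, and numbers were not taken as pairs. The alternatives tried were upper-quartile and RLE scaling, DESeq2 1.42.0, other count filters, only the groups compared, homeologs summed, the replicate block and each library left out.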

Additional observations from a re-analysis of the deposited data

How the results depend on the processing

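Across 21 alternatives no member was called for thioridazine at either stage, and no result changed direction past a threshold. Nor was a member called for the mean over both stages or the difference of the effects. The fits of only the groups compared did not cover those contrasts. The 5 calls between stages in controls became 2 with RLE scaling, 1 with only the groups compared, 1 with homeologs summed, and 1 to 8 with a library left out. The 17 calls in treated heads ranged from 3 to 24 with a library left out. Some fits with fewer libraries or groups gave fewer calls and some gave more, and the cause of these changes was not tested. The labels do not say that the replicate number pairs the stages. Correlations of equal numbers between stages were uneven, from 0.014 to 0.562, and leave this open. A replicate block across the stages gave 15 calls in controls and 31 in treated heads. Between treatments, where the numbers were taken as pairs, the block changed no call of a member. Over all genes the calls between stages ran from 429 to 3068 in controls, beside 1689, and from 392 to 2704 in treated heads, beside 1314, with the highest counts under the block. For thioridazine they ran from 0 to 268 at NF stage 45, from 0 to 171 at NF stage 47 and from 16 to 599 for their mean, and for the difference from 0 to 27. DESeq2 called 77, 69, 148 and 4 in those 4 comparisons. Of 2744 single-gene values under alternatives, 2627 kept their side of the threshold, 93 lost the call and 24 gained it. A change of sign was counted only where a fit called the gene, and 0 such reversals occurred. Uncalled values that changed sign are among the 2627. The members with the lowest counts limit what depth can show, and 5 were too low to test.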
